A study of Mus musculus with 5 samples.

Results

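The expression of 10 genes of the skeletal muscle programme was examined in hearts of mouse embryos at stage E12.5, in midgestation. The genes were Myod1, Myog, Myf5, Myf6, Pax7, Chrna1, Chrng, Myh3, Ckm and Mylpf. All probe sets that the platform annotation assigns to a single gene, with one of these symbols, were taken, which gave 12 probe sets for the 10 genes, of 20380 probe sets and 12393 genes in all. Chrng had 3 probe sets and every other gene had 1. The hearts came from 5 wild-type embryos of strain 129P2/OlaHsd that had been backcrossed to C57BL/6 for 2 generations, and RNA of each dissected heart was run on a separate Affymetrix 430A GeneChip. They are named hearts 6 to 10 here after their labelled replicate numbers, belong to 1 group without treatment or mutation, and have no second condition. The labels do not say whether the embryos shared a litter, so the errors measure the spread between these 5 samples. The question the design allows is which skeletal genes the fetal heart shares, and which gave no signal above background.

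Skeletal muscle and heart both contract through sarcomeres, but they arise from different mesoderm and are specified by different transcription factors. In the embryonic somite and limb, Pax3 and Pax7 mark muscle progenitors. The basic helix-loop-helix factors Myf5, Myod1, Myog and Myf6 then commit and differentiate them, largely by binding E-boxes, short DNA elements near muscle genes. Cardiac muscle forms without these factors, under Nkx2-5, GATA, T-box and MEF2 factors. Differentiating skeletal fibres make embryonic and fast isoforms of the contractile proteins and a fetal acetylcholine receptor, whereas the embryonic heart is known to use some isoforms that are later restricted to skeletal muscle.

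Each value is an intensity per probe set and array as deposited, given also as log2 of the intensity plus 16. A probe set's response to its transcript differs from gene to gene, so levels of different genes were not ranked. To judge signal, each array's background was set at the 95th percentile of 53 measured genes of unrelated tissues such as lens, retina, testis and pancreas. It corresponded to an intensity of 23.3, 28.4, 26.5, 24.3 and 19.3 in hearts 6 to 10, in that order. Of these 53 genes, only Prm1, which encodes a protamine of sperm, exceeded it in every heart (6.25 ± 0.13, SD, n = 5). Precision is limited by the number of arrays. Whole hearts were measured, so fewer cells of a type and less RNA per cell cannot be told apart. No skeletal muscle sample was analysed here, so a probe set that responds poorly cannot be told apart from an absent transcript.

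Of the 10 genes, 2 exceeded background in all 5 hearts, Mylpf and Ckm, and 8 exceeded it in no heart. None lay above it in some hearts only. Over all 12393 genes, 51.5% were above background in all hearts, 15.1% in some and 33.4% in none. The hearts thus gave signal on the probe sets of a fast light chain and of the muscle creatine kinase. They gave none above background for the 4 myogenic factors, Pax7, both receptor subunits or the embryonic myosin heavy chain. When each gene's distance from background was set against the spread between hearts, with limma's moderated test over all genes, the same division was found. Mylpf and Ckm were above background (Benjamini-Hochberg adjusted p of 0.000311 or less) and the other 8 below it (adjusted p of 0.0114 or less). Of the 53 unrelated genes, 49 were called below as well, because background was set near the upper end of their values. A call below background thus shows only that a gene lay under that upper end. It is not separate evidence that a transcript was absent. By this test 53.3% of all genes were above and 34.6% below. The median distance from background was -0.85 over the 10 genes and 0.49 over all genes on the log2 scale.

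**Figure D1:**
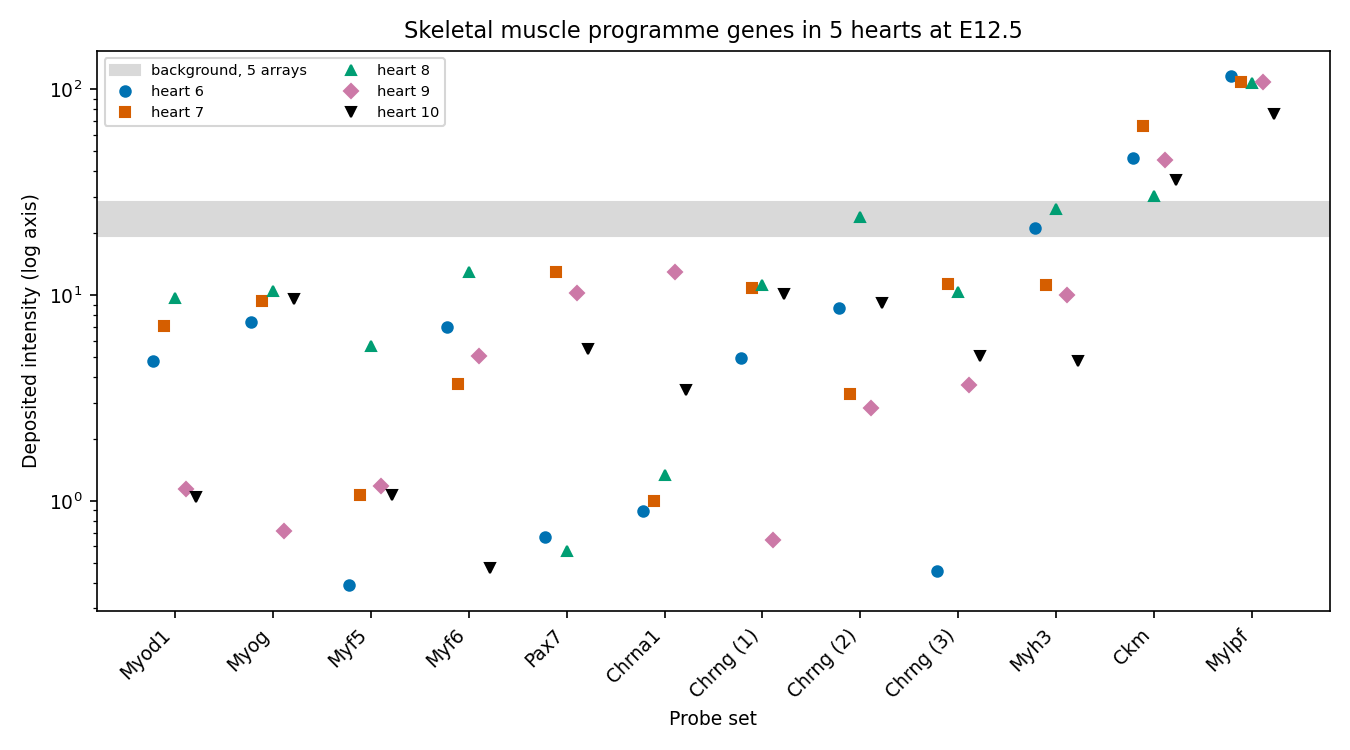
Deposited intensity of each of the 12 probe sets (log axis), with a separate symbol for each of the 5 hearts and a grey band for the range of the array backgrounds, 19.3 to 28.4. Mylpf and Ckm lie above the band in all hearts, while Myh3 in hearts 6 and 8 and the second Chrng probe set in heart 8 fall within the range of the band but under the background of their own array.

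Mylpf encodes the fast skeletal regulatory light chain of myosin, which binds the neck of the heavy chain. Its intensity was 116, 109, 108, 109 and 76.2 in hearts 6 to 10. Hearts 6 to 9 were close together and heart 10 was lowest. On each array this was between 3.84 and 4.99 times the background intensity, and the array with the lowest Mylpf also had the lowest background. The level of 6.89 ± 0.21 (SD, n = 5) was 1.56 above background on the log2 scale (95% confidence interval 1.29 to 1.84, limma adjusted p = 6.74e-12). Myl2, the regulatory light chain of the ventricle, was measured by its own probe set at 13.19 ± 0.17, and the atrial form Myl7 at 12.72 ± 0.14. Whether transcripts of these related light chains added to the signal of the Mylpf probe set was not tested.

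Ckm encodes the cytosolic creatine kinase of muscle, which regenerates ATP from phosphocreatine in both striated muscles. Its intensity was 46.5, 66.8, 30.4, 45.6 and 36.4 in hearts 6 to 10. Heart 7 was highest and heart 8 lowest, at 1.15 times its array's background, against 2.35 times in heart 7. The level of 5.91 ± 0.31 was 0.58 above background (95% confidence interval 0.29 to 0.86, limma adjusted p = 0.000311). With background at the 99th percentile of the unrelated genes, Ckm was no longer above it (-0.01, adjusted p = 1), whereas Mylpf was (0.97, adjusted p = 3.89e-07). Heart 7 had the largest 3' to 5' ratio of the Gapdh control probe sets as well, 5.69 against 2.50 to 3.55 in the others. The same ratio of the actin control probe sets was largest in heart 8, at 4.48, with 4.27 in heart 7 and 3.20 to 3.67 in the rest. Heart 7 also had the highest summed intensity of 7 red cell genes, 27000 against 17420 to 25370. The Ckm distance was 0.50 without heart 7 (adjusted p = 0.000873).

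Myh3 encodes the embryonic myosin heavy chain, the isoform that developing skeletal fibres make early. Its intensity was 21.2, 11.2, 26.1, 10.0 and 4.8 in hearts 6 to 10. Hearts 6 and 8 came within 0.08 and 0.01 log2 units of their array's background, and the other hearts were at least 0.63 below. The level of 4.89 ± 0.41 was 0.44 under background (difference -0.44, 95% confidence interval -0.75 to -0.13, limma adjusted p = 0.0114). The call of Myh3 as below background was lost without heart 10 (-0.36, adjusted p = 0.0645) and with background at the 90th percentile (-0.18, adjusted p = 0.39). Myosin heavy chain genes share long stretches of sequence, so signal of this probe set may come in part from a paralog, and its share was not tested.

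**Figure D2:**
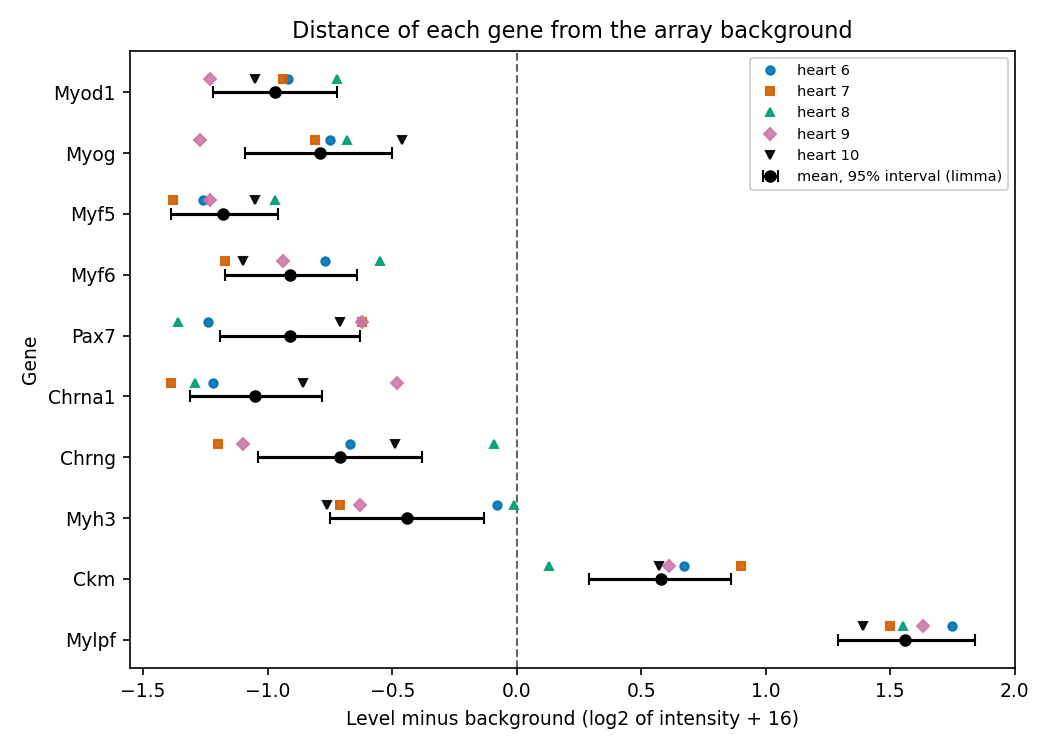
Level of each gene minus its array's background (log2 of intensity plus 16) in each heart (coloured symbols), with the mean and limma's 95% confidence interval (black) and background as a dashed line. The intervals of Mylpf (1.29 to 1.84) and Ckm (0.29 to 0.86) lie above the line and those of the other 8 genes below it, with Myh3 nearest.

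The 4 myogenic regulatory factors and Pax7 gave values within the range of the unrelated genes. The mean of Ckm, 5.91, lay within that range as well, with 1 unrelated gene above it. Myod1, which commits progenitors to muscle, had intensities of 4.79, 7.11, 9.70, 1.14 and 1.04 in hearts 6 to 10. Myf5, the earliest of the family in the somite, had 0.388, 1.07, 5.63, 1.18 and 1.07 in the same order. Both stayed well under the background on every array, the highest ratio being 0.366 for Myod1 and 0.213 for Myf5.

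Myog, which drives differentiation into fibres, had intensities of 7.40, 9.35, 10.5, 0.713 and 9.59 in hearts 6 to 10. Myf6, a factor of late differentiation also known as MRF4, had 7.02, 3.71, 12.9, 5.08 and 0.473. Pax7, the paired box factor of muscle progenitors and satellite cells, had 0.669, 13, 0.567, 10.2 and 5.49. No heart was highest or lowest for all 5 regulators. Heart 8 was highest for Myod1, Myog, Myf5 and Myf6 but lowest for Pax7.

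The mean levels of these 5 genes were 4.36 ± 0.26 for Myod1, 4.54 ± 0.27 for Myog, 4.15 ± 0.16 for Myf5, 4.42 ± 0.30 for Myf6 and 4.42 ± 0.37 for Pax7 (SD, n = 5). The unrelated genes had means from 4.07 to 6.25, with a median of 4.46. Like 49 of the 53 unrelated genes, all 5 regulators were called below background by limma (adjusted p of 1.60e-05 or less). Their distances from background lay between -1.18 for Myf5 and -0.79 for Myog. The offset of 16 compresses such small intensities, so these distances understate ratios.

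Chrna1 and Chrng encode the alpha subunit of the muscle acetylcholine receptor and the gamma subunit of its fetal form. The Chrna1 intensities were 0.890, 1, 1.33, 12.9 and 3.46 in hearts 6 to 10. Heart 9 stood above the others but reached 0.530 of its array's background. The level was 4.28 ± 0.33, or -1.05 from background (limma adjusted p = 5.37e-08).

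The brightest Chrng probe set had intensities of 8.70, 3.29, 23.9, 2.82 and 9.12 in hearts 6 to 10. Heart 8 came to 0.904 of background, and the other hearts to 0.473 or less. Its level was 4.62 ± 0.44, or -0.71 from background (limma adjusted p = 0.000253). The other Chrng probe sets had intensities of 0.646 to 11.2 and of 0.457 to 11.3, with heart 9 lowest on the former and heart 6 on the latter. In heart 8 they gave 11.2 and 10.3, so the higher value of the brightest probe set in that heart was not shared by all 3.

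No difference in level between hearts was called for any of the 10 genes. In limma's variance test, which sets each gene against genes of similar level, the smallest unadjusted p among them was 0.176, for Chrng, and the adjusted p was 0.96 or more. None had an unadjusted p under 0.05, against 551 of all genes, and 5 of 12393 genes passed after adjustment (0.0403%). The median SD was 0.31 over the 10 genes and 0.26 over all genes. The SD of Chrng exceeded that of 90.1% of all genes and the SD of Myh3 that of 86.8%, so the test does not show that these genes were alike in all hearts.

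Because the regulators act through E-boxes, the 250 bases before the start of each gene were read from RefSeq (build GRCm38.p6), which matched 8 of the 10 genes, all but Myod1 and Myf6. Upstream sequences are shown for the 2 genes above background, for the myosin gene nearest to it, and for a regulator and a receptor gene below it. Capitals mark the E-box letters CANNTG, which read the same on both strands. The windows are chr7:127211358-127211607 on the plus strand for Mylpf, chr7:19410844-19411093 on the plus strand for Ckm, chr11:67078050-67078299 on the plus strand for Myh3, chr1:134289754-134290003 on the plus strand for Myog and chr1:87205561-87205810 on the plus strand for Chrng.
Mylpf: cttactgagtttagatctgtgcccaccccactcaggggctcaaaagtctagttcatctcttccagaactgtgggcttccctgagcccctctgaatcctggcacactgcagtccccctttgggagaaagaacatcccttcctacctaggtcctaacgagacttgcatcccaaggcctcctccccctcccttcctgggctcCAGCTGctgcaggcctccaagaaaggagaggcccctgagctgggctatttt
Ckm: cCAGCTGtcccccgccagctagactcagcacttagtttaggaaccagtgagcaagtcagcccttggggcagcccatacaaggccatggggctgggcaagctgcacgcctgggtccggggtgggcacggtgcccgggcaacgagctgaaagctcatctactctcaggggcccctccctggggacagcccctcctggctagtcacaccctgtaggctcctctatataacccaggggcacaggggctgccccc
Myh3: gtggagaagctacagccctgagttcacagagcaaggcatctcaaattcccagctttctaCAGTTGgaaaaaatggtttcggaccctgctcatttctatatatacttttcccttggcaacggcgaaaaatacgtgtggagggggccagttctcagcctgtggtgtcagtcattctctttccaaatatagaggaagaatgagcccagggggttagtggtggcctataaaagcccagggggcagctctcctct
Myog: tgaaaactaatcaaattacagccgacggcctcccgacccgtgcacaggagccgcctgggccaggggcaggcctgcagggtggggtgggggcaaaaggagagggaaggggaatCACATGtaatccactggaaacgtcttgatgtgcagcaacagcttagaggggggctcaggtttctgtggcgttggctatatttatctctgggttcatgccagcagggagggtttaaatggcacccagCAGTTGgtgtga
Chrng: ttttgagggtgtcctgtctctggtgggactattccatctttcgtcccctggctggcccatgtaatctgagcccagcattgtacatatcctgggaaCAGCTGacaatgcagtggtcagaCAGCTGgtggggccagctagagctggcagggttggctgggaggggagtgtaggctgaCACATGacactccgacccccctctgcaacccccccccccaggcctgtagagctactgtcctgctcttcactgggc

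E-box letters occurred on both sides of the division. Mylpf and Ckm had 1 match each, beginning 51 and 249 bases before the start, and both were of the form CAGCTG. Among the genes below background, Chrna1 and Chrng had 3 matches each, Myog 2 and Myh3 1, while Pax7 and Myf5 had none in this window. CANNTG thus occurred in 6 of 8 windows, against 66.2% of 32851 RefSeq windows of the same length. The form CAGCTG, counted within CANNTG, was found in 4 of 8 against 13%. On either strand, a loose pattern for the MEF2 element (CTA, any 4 bases, TAG) occurred in the Myf5 window, against 3.20% of all windows. The pattern leaves the middle bases open, so this match, ctaggtttag, need not be a MEF2 element. Other forms of the element were not searched, so a window without a match may still hold one. CATTCC, the MCAT element, occurred in none of the 8 windows, against 12.6%. These matches describe letters only. The genes of the 2 groups were not separated by chromosome: Ckm, Mylpf and Myod1 lie on chromosome 7, and Myf5 and Myf6 are neighbours on chromosome 10.

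The wider skeletal programme was divided in the same hearts by role. Across 6 lists of related genes, 26 of 60 measured genes exceeded background in all hearts, 6 in some and 28 in none, against 51.5%, 15.1% and 33.4% of all genes. In energy supply 8 of 10 genes were above background in all hearts, against 2 of 11 upstream regulators and 1 of 7 genes of calcium release. The lists of fusion and cell surface (5 of 8) and of filaments (7 of 15) were near the share of all genes. The lists were drawn up with earlier results of these hearts known and are described by counts alone.

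**Figure D3:**
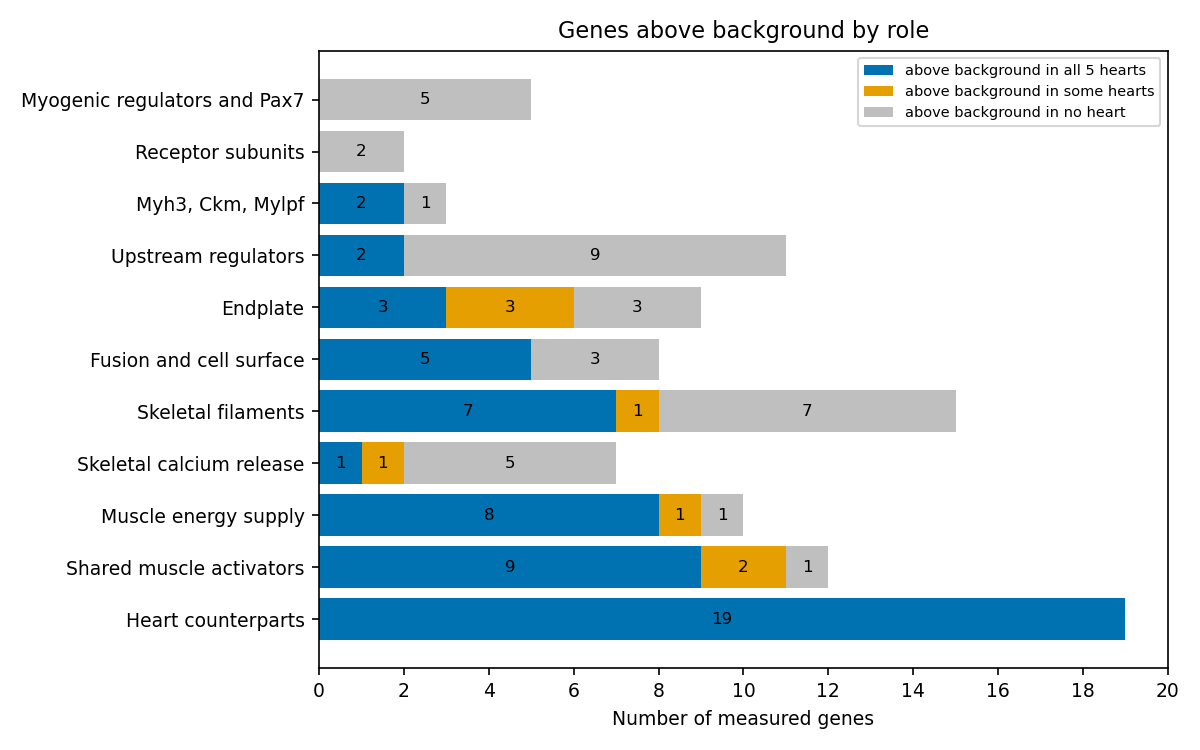
Number of measured genes in each list that exceeded background in all 5 hearts (blue), in some (orange) or in none (grey). The list of myogenic factors with Pax7 and the list of the receptor subunits Chrna1 and Chrng have no gene above background. In contrast, 8 of 10 genes of muscle energy supply and all 19 heart counterparts are above it in all hearts.

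Upstream of the myogenic factors, 2 of 11 measured genes exceeded background in all hearts and 9 in none. Pax3, which acts with Pax7 in progenitors, was at 4.45 ± 0.33, Six4 at 4.64 ± 0.30 and Eya1 at 4.50 ± 0.26, all below background by limma. The genes above it were the homeobox gene Meox1, at 6.90 ± 0.08, and Tcf15, at 5.87 ± 0.22, both of which act in the somite. Meox1 had 6.83 to 7.04 in the 5 hearts, a narrow range, and Tcf15 5.64 to 6.15. With background at the 99th percentile, 1 gene of this list remained.

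At the endplate, the fetal receptor is built from alpha, beta, gamma and delta subunits. Only the beta subunit gene Chrnb1 exceeded background among its genes, with 5.98, 6.10, 5.60, 5.98 and 5.83 in hearts 6 to 10 (distance 0.57, limma adjusted p = 0.000284). The delta subunit gene Chrnd was at 4.10 ± 0.05 and the gene of the adult epsilon subunit, Chrne, at 4.09 ± 0.04, like Chrna1 and Chrng below background in every heart. Musk, the kinase that gathers receptors at the synapse, was at 4.43 ± 0.27. Its activators, the co-receptor Lrp4 (6.54 ± 0.14) and the nerve-derived ligand Agrn (9.87 ± 0.19), were above background in all hearts. Lrp4 and Agrn are also made outside muscle. In all, 3 of 9 genes of the list were above in all hearts, 3 in some and 3 in none.

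Among genes of myoblast fusion and the muscle surface, 5 of 8 exceeded background in all hearts. The fusion gene Mymk, at 4.66 ± 0.14, the myoblast cadherin Cdh15, at 4.76 ± 0.38, and the laminin receptor Itga7, at 4.20 ± 0.03, exceeded it in none. Those above it were the adhesion molecules Ncam1 (10.87 ± 0.21) and Cdh2 (8.92 ± 0.38), and genes of the muscle membrane, dystrophin Dmd (5.92 ± 0.36), caveolin Cav3 (7.58 ± 0.26) and dysferlin Dysf (7.04 ± 0.36). These are known in heart muscle as well.

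Contractile genes split by isoform. Of 15 measured, 7 exceeded background in all hearts, 1 in some and 7 in none. The skeletal heavy chains Myh1 (4.40 ± 0.35), Myh2 (4.62 ± 0.38), Myh4 (4.38 ± 0.34) and Myh8 (4.85 ± 0.06) were below background in every heart, as was Myh3, their neighbour in the genome. The alkali light chain Myl1, the partner of Mylpf in fast myosin, was at 10.46 ± 0.22, with 10.17 to 10.76 in the hearts. The slow skeletal troponins Tnnt1 (11.80 ± 0.23) and Tnni1 (11.91 ± 0.18) were above background, and so were the fast troponins Tnnt3 (6.39 ± 0.23) and Tnni2 (9.01 ± 0.31). The third subunit of fast troponin, encoded by Tnnc2, was not (4.52 ± 0.35). Skeletal actin Acta1 (8.23 ± 0.37) and the Z-disc gene Myoz1 (6.51 ± 0.11) completed the genes above background.

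Calcium release and energy supply stood apart. In the calcium list 1 of 7 genes exceeded background in all hearts, Casq1, the fast calsequestrin that stores calcium (9.13 ± 0.17). The skeletal release channel Ryr1 was at 4.52 ± 0.45 and below background by limma. The fast calcium pump Atp2a1, at 5.28 ± 0.21, exceeded it in 2 hearts. Of 10 genes of energy supply, 8 were above background in all hearts. They included the muscle enolase Eno3 (10.76 ± 0.32), glycogen phosphorylase Pygm (8.06 ± 0.29), phosphoglycerate mutase Pgam2 (10.90 ± 0.27), the oxygen carrier Mb (9.77 ± 0.23) and the brain-type creatine kinase Ckb (7.85 ± 0.14). The cytochrome oxidase subunits Cox6a2 (11.55 ± 0.26), Cox7a1 (8.88 ± 0.21) and Cox8b (8.99 ± 0.38) made up the rest. The list was not restricted to genes particular to skeletal muscle, as Ckb shows, so its count depends on that choice. Ckmt2, the mitochondrial creatine kinase of striated muscle, exceeded background in 3 hearts (5.44 ± 0.22), and Ckmt1 in none (4.45 ± 0.25). Like Ckm, all 8 genes above background had their highest level in heart 7. That heart had the largest Gapdh ratio and red cell sum but not the largest actin ratio. The part of RNA quality and red cells in these levels was not tested.

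**Figure D4:**
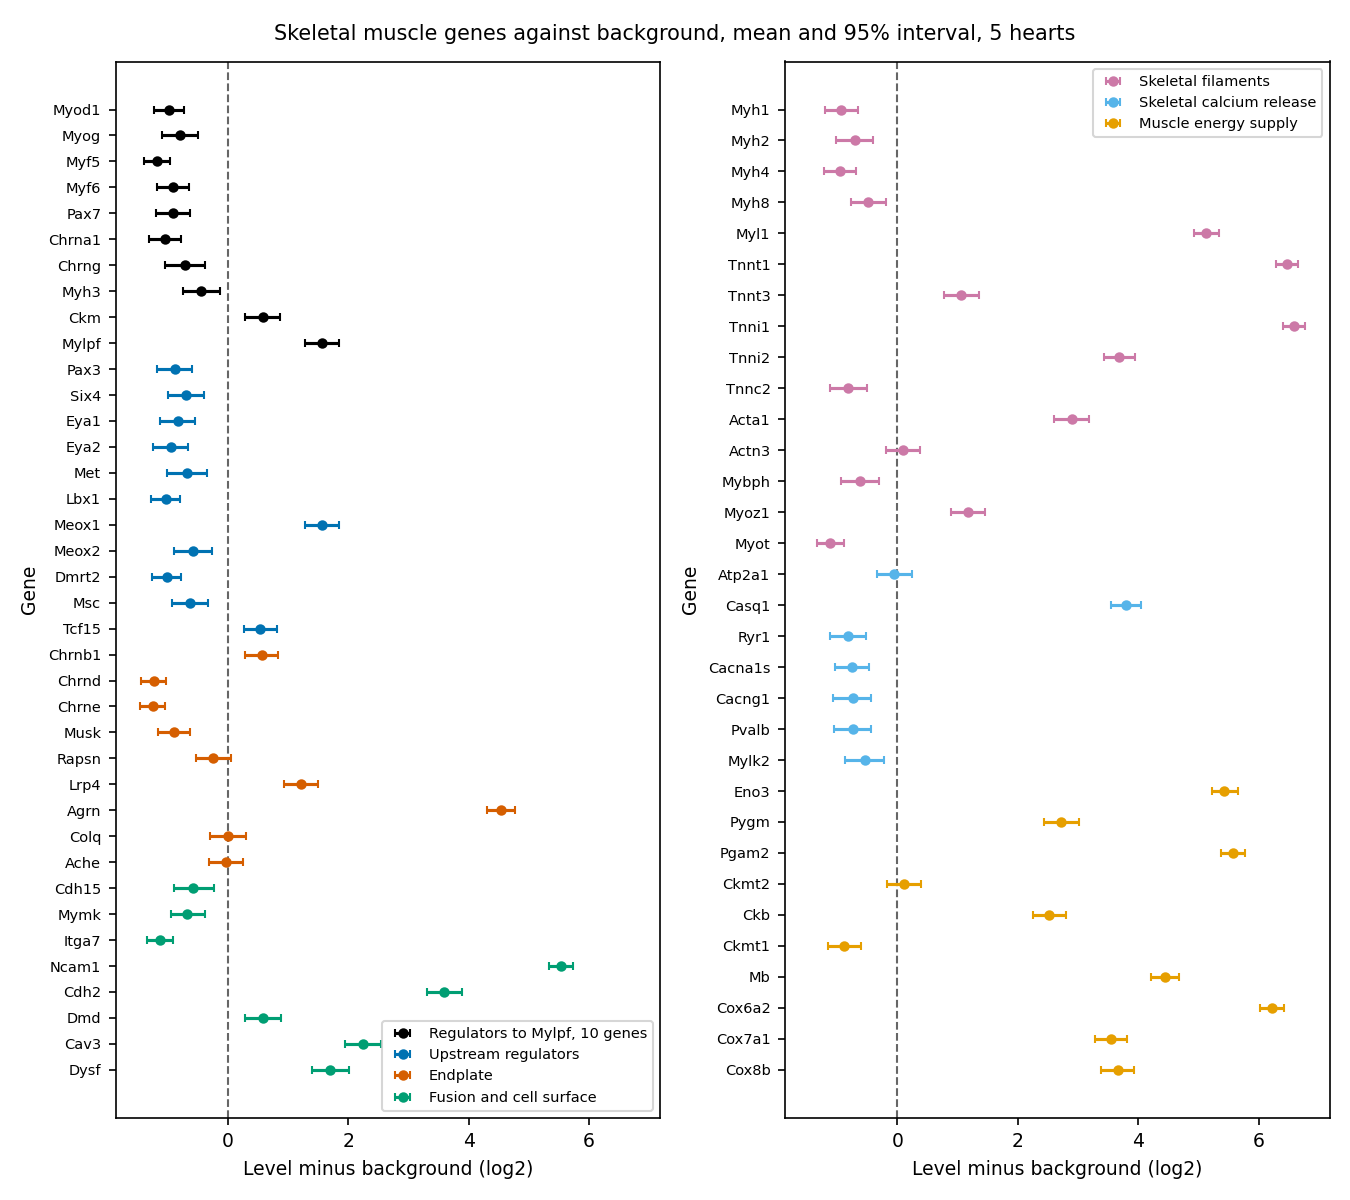
Mean level minus background (log2 of intensity plus 16) with limma's 95% confidence interval over 5 hearts for the 10 genes (black) and the genes of the 6 lists, coloured by list, with background as a dashed line. Upstream regulators apart from Meox1 and Tcf15 and the skeletal heavy chains lie left of the line, and the troponins other than Tnnc2 and most genes of energy supply lie right of it.

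Genes that fill the same roles in heart were above background in all hearts for 19 of 19 measured. Among them were the factors Nkx2-5 (5.64 ± 0.28), Gata4 (8.47 ± 0.20) and Tbx5 (8.14 ± 0.45), which define the tissue as heart. Markers of tissues that lie near the heart were set beside these values. Of 4 measured genes of pharyngeal muscle progenitors, Isl1 (6.97 ± 0.31) was above background in all hearts, Tcf21 (6.02 ± 0.45) in 4, and Tbx1 (4.29 ± 0.26) and Lhx2 in none. Isl1 and Tcf21 are also known in heart progenitors and epicardium. Of 7 cartilage and sclerotome genes, Col2a1 (6.47 ± 0.42) and Col9a1 (7.05 ± 0.20) were above in all hearts, while Acan (4.89 ± 0.18), Matn1, Pax1, Pax9 and Nkx3-2 were above in none. Of 8 lung and foregut genes, Grhl2 (5.72 ± 0.21) and Krt8 (6.48 ± 0.37) were above in all hearts and 6 in none, among them Nkx2-1 (5.00 ± 0.33), Sftpc (4.57 ± 0.24) and Foxa2 (4.13 ± 0.10). Of 8 liver genes, Ttr (5.95 ± 0.24) was above in all hearts and Apoa2 (5.92 ± 0.82) in 4, both above background by limma (adjusted p of 0.0367 or less), and 6 were above in none, among them Afp (4.62 ± 0.28) and Alb (4.63 ± 0.49). Of 7 neuronal genes, Stmn2 (6.25 ± 0.28) was above in all hearts, Gap43 (6.10 ± 0.45) and Nefl (5.62 ± 0.26) in 4, Tubb3 (5.26 ± 0.17) in 3, and 3 genes, among them Elavl4 (4.98 ± 0.28), in none. By limma Stmn2, Gap43 and Nefl were above background (adjusted p of 0.0395 or less). Of 7 red cell genes, 6 were. They were the embryonic globin genes Hba-x (12.44 ± 0.41), Hbb-bh1 (11.56 to 12.41 over the hearts) and Hbb-y (13.10 ± 0.21), with Alas2 (10.05 ± 0.91), Slc4a1 (9.88 ± 0.63) and Klf1 (5.40 to 7.04). The summed intensity over hearts ranged from 121.6 to 218.3 for the pharyngeal list, 176.3 to 284.4 for cartilage, 128.5 to 187.6 for lung and foregut, 97.04 to 173 for liver and 165.5 to 238.5 for neurons. Mylpf was lowest in heart 10, as was the cartilage sum. The fast genes Myl1 (10.17) and Tnni2 (8.56) also had their lowest level in heart 10, whereas the fast troponin Tnnt3 had its highest (6.67). The sum of the 53 unrelated genes was lowest there too, at 380.2 against 414.2 to 579.6 in the other hearts. The part of the nearby tissues and of red cells in the Mylpf and Ckm signal was not tested. The defining factors of skeletal muscle, Myod1, Myog, Myf5 and Myf6, were below background in the same hearts. Whether skeletal muscle cells contributed to the Mylpf and Ckm signal was not tested either.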

How the data were processed

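The authors deposited linear intensities, 1 for every probe set on each array. The submitters' processing notes name GCOS, with version and summary algorithm not given in the sources used here. Per the labels' protocols, 10 ng of RNA from each heart was amplified and labelled with biotin, which can add noise to weak transcripts. The deposited intensities share a 2% trimmed mean of 150.1, so differences in total signal are lost.

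Of 22690 probe sets, 20393 have 1 symbol, 691 several and 1606 are not listed in the platform annotation. Without 64 controls, 20380 were used, and 20351 matched RefSeq (GRCm38.p6) by gene number. A gene's brightest probe set over hearts represented it. Intensities were brought to a common trimmed mean and analysed as log2(intensity + 16). Background rested on 53 measured of 62 listed unrelated genes. With R 4.3.3 and limma 3.58.1, level minus background was tested against 0, one-sided in each direction, with a robust trended prior and the background taken as given. The variance between hearts (4 degrees of freedom) was compared with that prior (12.06) by an upper-tail F test. Both tests were adjusted by Benjamini-Hochberg over 12393 genes at 0.05 and were first tested on simulated data.

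The 10 genes, the lists and the background genes were chosen with earlier results of these data known. Named were the 10 genes, the first 3 measured of each list, and genes of the skeletal and other-tissue lists above background in all hearts. Others, such as Myl2, Myl7, Myh8, Tnnc2, Musk, Atp2a1, Ckmt1, Ckmt2, Gap43, Nefl, Apoa2 and further cartilage genes, were chosen after their values were seen. Alternatives covered scaling, offset, probe sets, background, prior and each heart left out.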

Additional observations from a re-analysis of the deposited data

Results flagged for a closer look

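The 12 probe sets were searched for single hearts far from the rest with Dixon's ratio, the gap to the nearest heart divided by the whole range, whose 95% critical value for 5 samples is 0.71. Chance alone passes about 1 in 20 such groups. The ratio passed for 4 probe sets. Mylpf was lowest in heart 10, at 6.53 against 6.96 in the next heart (ratio 0.828), and is the only gene among the 4 that was above background. Myf5 was highest in heart 8, at 4.43 against 4.10 (0.83), and Chrna1 in heart 9, at 4.85 against 4.28 (0.736). Myog was lowest in heart 9, at 4.06 against 4.55 (0.731). No heart was the extreme for all 4, and none of these genes was called by limma's variance test (adjusted p of 0.96 or more).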

How the results depend on the processing

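Mylpf was above background under all 14 alternatives run on its level, with distances of 0.92 to 2.05 on the log2 scale. Ckm was above it under 13 of 14. At the 99th percentile its distance was -0.01 (adjusted p = 1), so 1 of the 10 genes was then above background, both by the count in all hearts and by limma. With each heart left out in turn, both counts stayed at 2 and the Ckm distance lay between 0.50 and 0.69. Myh3 was not called below background with a gene's probe sets averaged (-0.25, adjusted p = 0.143), with _x_at and _s_at probe sets left out (-0.29, 0.126), without heart 10 (-0.36, 0.0645) and at the 90th percentile (-0.18, 0.39). In the first 2 of these cases Myh3 kept its only probe set and the background level moved. The other 7 genes were below background in all 98 values (adjusted p of 0.0138 or less). The count over the 6 skeletal lists ranged from 23 to 28 of 60. No gene of the 10 passed the variance test under any alternative run. No paired analysis was possible because the hearts form 1 group. Weak signals are limited by the background, since an intensity under about 19.3 to 28.4 could not be told from that of unrelated genes. The unrelated gene Prm1 gave 53.6 to 71.6, so values somewhat above background, such as those of Ckm, are not separated from all unrelated genes.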

Other observations

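Factors that skeletal and cardiac muscle share, and antagonists of the myogenic factors, were examined in the same hearts. Of 12 measured, 9 exceeded background in all hearts, 2 in some and 1 in none, against 51.5%, 15.1% and 33.4% of all genes. The MEF2 genes Mef2a (7.36 ± 0.25), Mef2c (8.92 ± 0.40) and Mef2d (6.41 ± 0.10, SD, n = 5), which activate muscle genes in both tissues, were among them, as were Srf (6.35 ± 0.13) and its cofactor Myocd (8.99 ± 0.63). Smyd1, a methyltransferase of striated muscle, was at 5.96 ± 0.37. Id2 (8.94 ± 0.34), Id3 (6.36 ± 0.18) and Twist1 (6.47 ± 0.55), known as inhibitors of basic helix-loop-helix factors, exceeded background in all hearts, and Id1 (5.55 ± 0.33) in 3. Of the TEAD factors, Tead1 (5.27 ± 0.19) exceeded it in 2 hearts and Tead4 (4.77 ± 0.36) in none. Mef2c and Myocd were lowest in heart 7, at 8.24 and 7.93 against 9.01 to 9.30 and 8.98 to 9.58 in the others. Neither passed limma's variance test (adjusted p = 0.96 and 0.723). Beyond Mef2a, Mef2c and Mef2d, these genes were chosen for naming after their values were seen.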
